A study of Mus musculus with 28 samples.

Results

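The genes described here encode 42 splicing factors measured in mouse brain synaptosomes, the nerve terminals with attached postsynaptic membrane that pinch off when brain tissue is homogenised. All symbols that begin with Hnrnp, Srsf, Sf3a or Sf3b were taken, without pseudogene, opposite-strand or Rik names, together with Ddx5 and Matr3. This gave 20 hnRNP genes, 11 SR genes, 9 SF3 genes and the 2 added genes, out of 25239 genes listed for SynSURF and 24443 for sucrose, and all 42 were listed in both. Poly(A) RNA was compared between 10 sorted and 10 crude libraries of the SynSURF preparation, in which synaptosomes held by a reversible fixative are sorted, and between 3 sorted and 3 crude libraries of a sucrose gradient preparation. Sorted particles were taken up in 10 µL of the reducing agent TCEP and the crude pellet in 10 µL of PBS, and all were amplified with a whole-transcriptome kit. The particle numbers given for each sorted and each crude library stood as 30 to 15 in both preparations. Particle input and buffer thus differed together with sorting, and their part in the results was not tested. The labels give no strain, sex or age and do not tie libraries to animals, so each p-value refers to the spread of these libraries alone, and that spread may be technical. Since the material is bulk, fewer particles that carry an RNA cannot be told apart from less of it per particle.

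Heterogeneous nuclear ribonucleoproteins (hnRNPs) coat nascent transcripts, often hold splice sites silent, and in part travel with mRNA into the cytoplasm. SR proteins carry arginine-serine repeats and recruit the splicing machinery to exons. The SF3A and SF3B complexes belong to the U2 snRNP, which binds the intron branch site. All of these proteins act mainly in the nucleus, while their mRNAs are translated outside it. In neurons, several hnRNPs are also known from RNA granules in dendrites and axons.

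Depth set a limit on every sorted SynSURF value. Sorted libraries held 76520 to 1812759 gene counts and crude libraries 1035423 to 8897238, while the 6 sucrose libraries held 1844679 to 6793374. Levels are CPM, gene counts relative to the library total scaled with TMM factors, so that 3 counts, the limit that a count of 0 allows, equalled 5.55 to 57.4 CPM in sorted and 0.233 to 2.13 CPM in crude SynSURF libraries. This limit covers counting error only. In all, 134 pairs of a splicing factor and a sorted library had no count, and in 32 of them the limit was under the crude median. Library sorted 4 stood apart for these genes and, less so, sorted 1. The 16 presynaptic genes of a fixed list took 0.133% to 0.990% of counts in sorted and 0.905% to 1.18% in crude libraries, and sorted 4 had the lowest share, with 10 of the 16 detected. The 15 postsynaptic genes took a median of 0.0753% in sorted (0.0382% to 0.309%) and 0.352% in crude libraries (0.293% to 0.441%). Of 12 tested, 0 rose and 4 fell. The 13-gene list of neuronal nucleus and soma proteins, of which 11 were in the table, took 0.539% of the counts of sorted 4, its highest share, against 0.169% to 0.250% in crude libraries. With all sorted libraries 2 of its genes rose and 2 fell of 9 tested. In sorted 4, 6 of the 11 had counts. The 9 nuclear RNAs took 0.00492% there, with Malat1 at 0 counts and 1 of 9 detected, against 0.00677% to 0.0185% in crude libraries. The 45S ribosomal RNA Rn45s took 0.805% to 62.5% of counts in sorted and 0.0894% to 0.778% in crude libraries. Of cell types outside the neuron, 12 oligodendrocyte genes took a median of 3.36% of counts in sorted (0.805% to 6.94%, lowest in sorted 4) and 0.809% in crude libraries (0.455% to 1.08%), and 5 rose and 1 fell of 11 tested. The 12 astrocyte genes took 0.512% (0.241% to 1.10%) against 1.62% (1.18% to 2.09%), with 1 higher and 5 lower of 12 tested, and the 12 microglia genes 0.0106% (0.00206% to 0.0560%) against 0.0827% (0.0518% to 0.118%), with 0 higher and 4 lower of 6 tested. The calls of these lists, at an edgeR adjusted p under 0.05, stand beside 7.62% higher and 22.1% lower of all genes tested. They depend on scaling. With plain library totals 3 oligodendrocyte genes rose and 4 fell, 1 astrocyte gene rose and 9 fell, and 0 microglia genes rose and 5 fell. Of all genes tested 1.52% then rose and 39.3% fell. None of the 10 endothelial and mural genes had a count in sorted 1 or sorted 4. Whether these markers or the ribosomal RNA had a part in the results was not tested.

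The splicing factors took a much larger share of counts in sorted 4 than in any other library. They held 10.96% of its counts, of which 7.58% came from hnRNP genes, 0.977% from SR genes, 0.0877% from SF3 genes and 2.32% from Ddx5 and Matr3. In the other 9 sorted libraries the 42 genes held 0.0842% to 0.738% of counts, highest in sorted 1, and in the 10 crude libraries 0.464% to 0.585%. The mean share was 1.44 ± 3.35% in sorted libraries (SD, n = 10), 0.380 ± 0.196% without sorted 4 (SD, n = 9) and 0.523 ± 0.0451% in crude libraries (SD, n = 10). Of the 100 genes with the most counts, 12 were splicing factors in sorted 4, 2 in sorted 1, and none in the other 8 sorted libraries. On the length-scaled TPM scale the hnRNP genes summed to 48700 TPM in sorted 4, the highest of the sorted libraries, whose median was 1726 TPM, against a median of 2000.1 TPM in crude libraries.

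**Figure D1:**
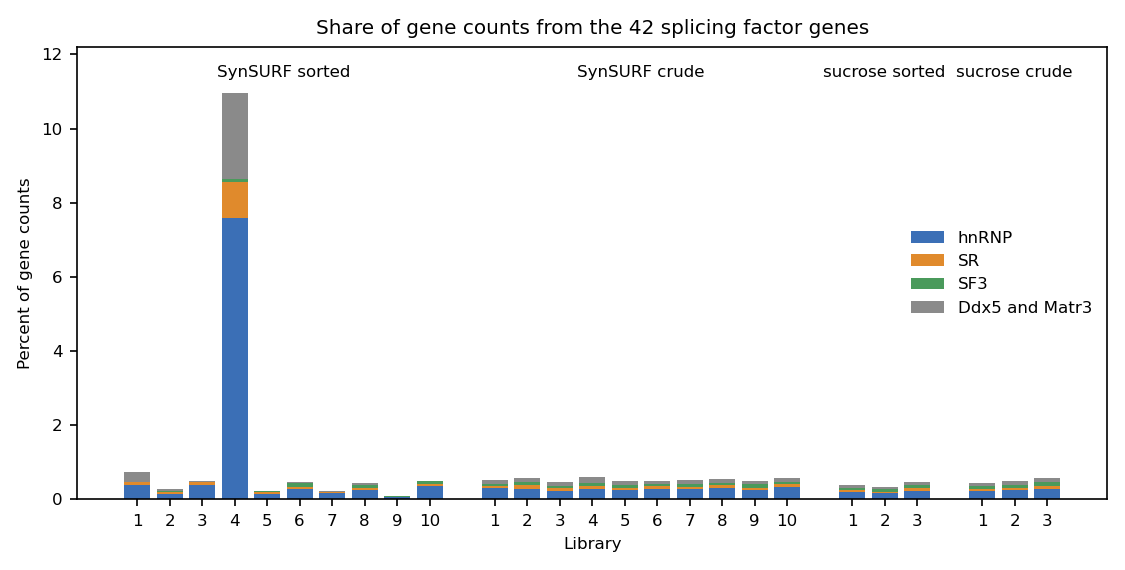
Each bar is 1 library and gives the percent of its gene counts from the 42 splicing factor genes, stacked by family, for SynSURF sorted and crude libraries and sucrose sorted and crude libraries. Sorted 4 reaches 10.96%, while all other bars lie between 0.0842% and 0.738%.

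With all 10 sorted libraries, RNAs of part of the hnRNP and SR families and of Ddx5 and Matr3 were higher in sorted than in crude SynSURF synaptosomes, and no SF3 RNA passed the test. Of the 36 members that passed the filter on low counts, 16 rose and 1, Hnrnpf, fell at an adjusted p under 0.05 in edgeR's quasi-likelihood test. Over all 6598 genes tested, 7.62% rose and 22.1% fell. The 16 were 9 of 18 tested hnRNP genes, 5 of 10 SR genes, Ddx5 and Matr3, with 0 of 6 tested SF3 genes in either direction. The median log2 fold change of sorted over crude was 1.84 over the 36 members and -0.18 over all genes tested. The other 6 members, Hnrnpa2b1, Hnrnph3, Sf3a2, Sf3b4, Sf3b5 and Srsf12, did not pass the filter. Most of these calls were lost without sorted 4. Then 37 members were tested, of which 1 rose, Hnrnpm, and 4 fell, Hnrnpf, Hnrnpdl, Sf3a3 and Srsf12, beside 6.84% and 25.7% of the 7278 genes tested. The median log2 fold change over the members was then 0.57, against -0.39 over all genes. Without sorted 1 and sorted 4 together, 2 members rose, Sf3b2 and Srsf4, and 9 fell, beside 6.69% and 31.6% of the 7433 genes tested, and the medians were -0.32 and -0.72. With plain library totals in place of TMM factors the median of all genes moved to -1.28, and 5 members rose while 6 fell, beside 1.52% and 39.3% of all genes. With the replicate number as a block 0 members rose and 3 fell, beside 37 and 2640 of 6598 genes. The medians were then -0.59 over the members and -1.97 over all genes. Leaving out any other single sorted library left 15 to 18 members higher, and leaving out a single crude library left 9 to 14. Of 20 fits with 1 library left out, the rise was lost in 10 for Matr3 and Srsf7 and in 9 for Hnrnpa3. It was lost in 8 for Srsf5 and in 5 for Hnrnpl, Hnrnpu and Srsf2. Hnrnpm lost it in 0, and the other risen members in 1, that without sorted 4.

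**Figure D2:**
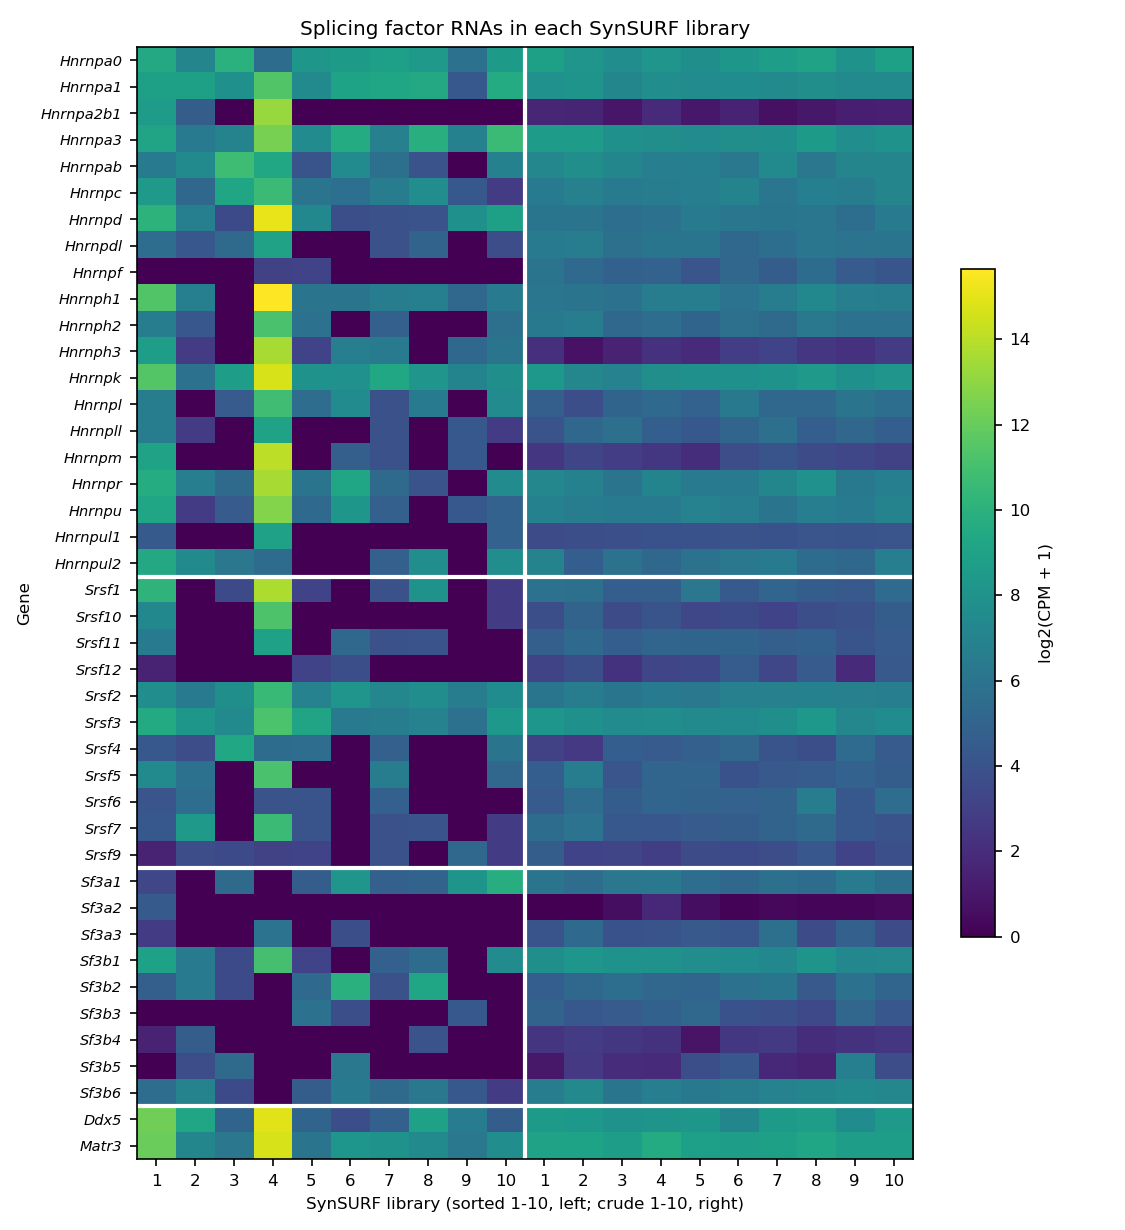
Rows are the 42 genes by family (hnRNP, SR, SF3, then Ddx5 and Matr3), columns are the SynSURF libraries, sorted 1 to 10 on the left and crude 1 to 10 on the right, and colour is log2(CPM + 1). The column of sorted 4 is bright for most hnRNP and SR genes, sorted 1 less so. Dark cells in sorted columns are zero counts, as for 7 of the 9 SF3 genes in sorted 4, where 3455 of the 6598 genes tested had none.

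Library by library, sorted 4 lay above the highest crude library for 29 of the 42 members, 27 of the 36 tested ones, beside 17.9% of all genes tested. These were 17 of 20 hnRNP genes, 8 of 11 SR genes, both added genes, but 2 of 9 SF3 genes. More than 50% of the summed sorted CPM came from sorted 4 in 24 of the 42 members and in 22 of the 36 tested, beside 9.18% of genes tested. The same library had no count for 8 members, of which 7 were SF3 genes. Among tested genes it had no count for 4 of the 36 members, beside 3455 of all 6598. Those 4 were among the 6 tested SF3 genes, so zeros in sorted 4 are not particular to this family. Sorted 1 lay above every crude library for 27 members, and for 24 of the 36 tested, beside 26.3% of genes tested. These positions are in CPM and rest on the TMM factors. As a plain share of counts, SR genes took 0.0765% in sorted 1, within the crude range of 0.0608% to 0.0916%. The hnRNP genes took 0.373%, above the crude 0.225% to 0.322%, and SF3 genes 0.0181%, below the crude 0.0534% to 0.0917%. Sorted 4 and sorted 1 lay below every crude library for 7 of the 36 each, beside 68.7% and 52.3% of genes tested. No member had all of its sorted libraries above every crude library, with or without sorted 4, beside 0.152% and 0.182% of all genes tested.

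**Figure D3:**
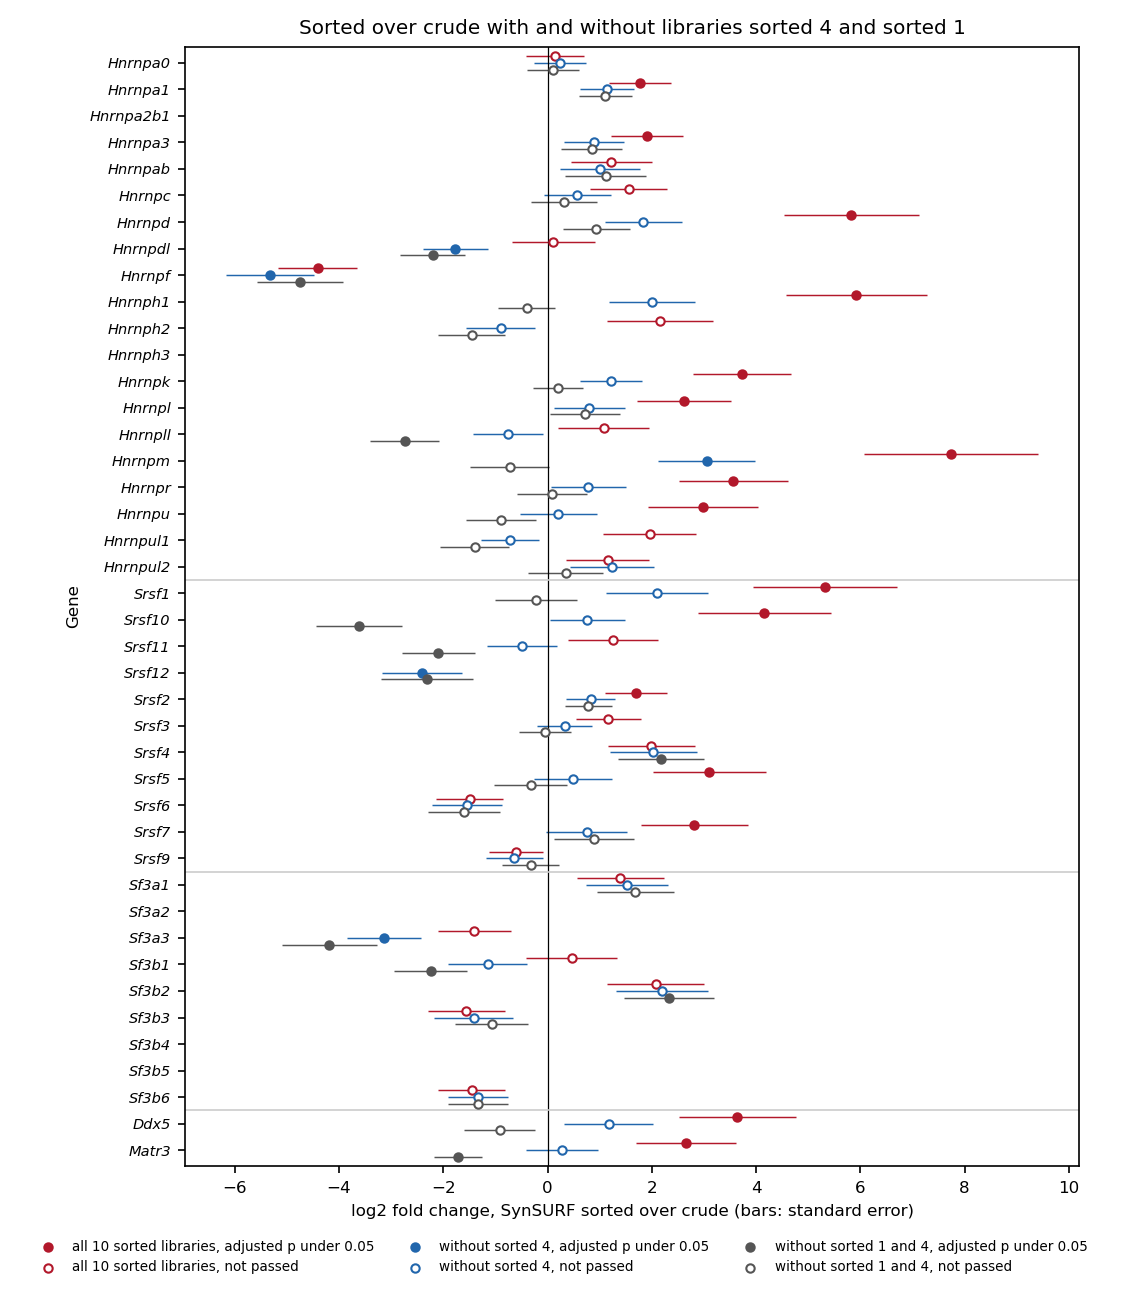
Points are log2 fold changes of SynSURF sorted over crude for each gene, with standard error bars, using all sorted libraries, all but sorted 4, or all but sorted 1 and sorted 4, and filled points have an adjusted p under 0.05. Genes with no point were not tested. Hnrnpf stays on the left at -4.41, -5.32 and -4.74, while most of the points far to the right with all libraries, such as Hnrnpm at 7.74, move left as the libraries are left out.

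Among the hnRNP A and B proteins, Hnrnpa1 lay above the crude range in most sorted libraries. Its protein binds exons and represses their use, and shuttles between nucleus and cytoplasm. Hnrnpa1 measured 19.1 CPM in the lowest, 510 CPM in the median and 2742 CPM in the highest sorted library, against 146, 190 and 267 CPM in crude libraries. In 7 of 10 sorted libraries it exceeded the highest crude library in CPM, and 1 lay below the lowest. As a plain share of counts sorted 1, with 258 of 1812759, was below crude 3, with 305 of 1362887. The log2 fold change was 1.78 ± 0.59 (SE, edgeR adjusted p = 0.0251), and 1.14 ± 0.51 without sorted 4, which did not pass. Its transcript shares 46.4% of its 50-base words with other annotated genes, almost all with the pseudogene Gm10052, so its counts depend on how the authors assigned such reads.

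Hnrnpa0, a close relative that binds AU-rich elements, did not share this pattern. Its sorted libraries ran over 45.7, 355 and 1022 CPM (lowest, median, highest), against 205, 296 and 512 CPM in crude libraries, and sorted 4 was its lowest. The groups overlapped, with a log2 fold change of 0.14 ± 0.55 (SE, edgeR adjusted p = 0.862). Hnrnpa3, which binds the same trafficking element as hnRNP A2, measured 89.5, 375 and 5483 CPM in sorted against 187, 226 and 400 CPM in crude libraries. In 5 sorted libraries Hnrnpa3 was above every crude library and in the other 5 below every one, and it rose with a log2 fold change of 1.91 ± 0.69 (SE, edgeR adjusted p = 0.0381), or 0.88 ± 0.57 without sorted 4, which did not pass. Hnrnpab, known from RNA transport in neurons and oligodendrocytes, had 0, 102 and 1759 CPM in sorted and 72.1, 137 and 208 CPM in crude libraries, with its highest value in sorted 3. The log2 fold change of Hnrnpab, 1.23 ± 0.77, did not pass (SE, edgeR adjusted p = 0.240).

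Hnrnpa2b1 encodes hnRNP A2/B1, known for carrying mRNAs such as Mbp along oligodendrocyte processes and dendrites. The authors' counts for it were very low in crude libraries, with 0.654, 1.54 and 2.73 CPM, while sorted 4 held 9558 CPM, sorted 1 held 385 CPM, another library 23.9 CPM and the remaining 7 no count. Sorted 4 thus gave 95.9% of the summed sorted CPM. Hnrnph3, an H-family protein, was likewise low in crude libraries, at 0.710, 3.64 and 7.72 CPM, and reached 12474 CPM in sorted 4 and 427 CPM in sorted 1. Unlike Hnrnpa2b1, Hnrnph3 exceeded every crude library in 7 of 10 sorted libraries. The 8 sorted libraries other than 1 and 4 had a median of 23.1 CPM and a highest value of 101 CPM. These 8 held 29 Hnrnph3 counts in all. In them 3 counts equalled 17.7 to 57.4 CPM, above the highest crude value, so their positions rest on few counts. Hnrnpa2b1 and Hnrnph3 both failed the filter. With no filter edgeR gave log2 fold changes of 8.57 ± 1.66 for Hnrnpa2b1 and 7.58 ± 1.41 for Hnrnph3. Adjusted p was 0.000403 for Hnrnpa2b1, the only alternative that tested it, and ranged from 8.18e-05 to 0.000301 for Hnrnph3 over the alternatives that tested it. How reads were assigned to genes is not given in the sources used here, and what part this has in the low crude counts of Hnrnpa2b1 and Hnrnph3, on which these fold changes rest, was not tested.

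Hnrnpm, a splicing repressor, had the largest share from a single library among the tested members. Of the untested members Sf3a2 exceeded it, with its 11 sorted counts all in sorted 1. Sorted 4 held 17219 CPM of Hnrnpm and sorted 1 held 514 CPM, while the other 8 sorted libraries ran up to 25.3 CPM, 5 of them with no count. Crude libraries measured 3.12, 7.88 and 15.97 CPM. Sorted 4 gave 96.8% of its summed sorted CPM, and the sorted median of 6.83 CPM lay below the crude median. The log2 fold change was 7.74 ± 1.67 (SE, edgeR adjusted p = 0.000844), 3.05 ± 0.93 without sorted 4 (adjusted p = 0.0137, with alternatives from 0.000479 to 0.754), and -0.73 ± 0.77 without sorted 1 and sorted 4, which did not pass. Of its 50-base words, 28.8% are shared with March2, with which it overlaps on the same strand over 14.7% of its exonic bases, and the part of read assignment in its low crude counts was not tested either.

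Hnrnpk, a KH-domain protein that binds C-rich RNA, had 59.6, 276 and 26601 CPM in sorted against 123, 228 and 355 CPM in crude libraries. The medians were close and 4 of 10 sorted libraries lay above all crude ones. It rose with a log2 fold change of 3.73 ± 0.94 (SE, edgeR adjusted p = 0.00358), and without sorted 4 the change was 1.21 ± 0.60 and did not pass. Hnrnpd (AUF1), which binds AU-rich elements and promotes mRNA decay, was named after its values were seen. It had 10.5, 133 and 35428 CPM in sorted against 49.1, 66.8 and 89.6 CPM in crude libraries, and 6 sorted libraries were above and 4 below the crude range. Its log2 fold change was 5.83 ± 1.29 (SE, edgeR adjusted p = 0.00112), and 1.84 ± 0.74 without sorted 4, which did not pass. Hnrnpr, known from axonal mRNA transport in motor neurons, rose by 3.56 ± 1.05 on the log2 scale with all libraries (SE, edgeR adjusted p = 0.0115), and its change was 0.79 ± 0.71 without sorted 4. Hnrnpl and Hnrnpu were the remaining hnRNP genes that rose, with calls lost without sorted 4 and also without some single crude libraries. Hnrnpdl went the other way once that library was left out, with a log2 fold change of 0.11 ± 0.79 with all libraries and -1.77 ± 0.63 without sorted 4.

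The H and F proteins are close relatives that bind runs of G, and with all libraries Hnrnph1 rose while Hnrnpf fell. The coding sequences of Hnrnph1 and Hnrnph2 are 85.9% identical, Hnrnph1 and Hnrnpf 77.0% and Hnrnph2 and Hnrnpf 74.1%. Of 50-base words, Hnrnph1 shares 0.336% with 1 other gene, Gm49168, and Hnrnph2 shares 18.2% with 1 other gene, Gm8775. Hnrnph1, Hnrnph2 and Hnrnpf thus share no such word with each other. The stretches below, coding bases 349 to 438 in each of the 3 genes, are the 90 aligned bases most alike in all 3. Capitals mark the 13 columns that are not the same in all 3. The stretches were read from GENCODE M21 on GRCm38, where Hnrnph1 lies at chr11:50376990-50386528, Hnrnph2 at chrX:134601179-134607060 and Hnrnpf at chr6:117900324-117925622, all on the plus strand.
Hnrnph1: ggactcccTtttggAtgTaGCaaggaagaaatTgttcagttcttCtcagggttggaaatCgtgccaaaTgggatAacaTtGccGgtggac
Hnrnph2: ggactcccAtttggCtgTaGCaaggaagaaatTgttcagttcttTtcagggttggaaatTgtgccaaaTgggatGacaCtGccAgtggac
Hnrnpf: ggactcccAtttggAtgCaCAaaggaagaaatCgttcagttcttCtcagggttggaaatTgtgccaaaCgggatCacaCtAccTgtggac

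Hnrnph1 reached 50994 CPM in sorted 4 and 2685 CPM in sorted 1. The other 8 sorted libraries held 0 to 107 CPM with a median of 72.9 CPM, against 59.5, 92.9 and 160 CPM in crude libraries, so without those 2 libraries the groups overlapped. Its log2 fold change was 5.92 ± 1.36 (SE, edgeR adjusted p = 0.00154), 2.01 ± 0.83 without sorted 4 and -0.40 ± 0.55 without sorted 1 and sorted 4, and the last 2 did not pass. Hnrnph2 had 0, 22.6 and 2292 CPM in sorted and 31.7, 54.1 and 95.2 CPM in crude libraries, and its log2 fold change of 2.16 ± 1.01 did not pass (SE, edgeR adjusted p = 0.110). Without sorted 4 the value for Hnrnph2 was -0.90 ± 0.67, and without sorted 1 and sorted 4 it was -1.46, so that Hnrnph1, Hnrnph2 and Hnrnpf then all had negative values.

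Hnrnpf was the member with fully separate groups. It had 2 counts in all 10 sorted libraries together, 1 each in sorted 4 (7.62 CPM) and sorted 5 (7.92 CPM), and none in the other 8, against 16.1, 29.01 and 64.6 CPM in crude libraries. Every sorted library lay below every crude library, as for 8.73% of all genes tested, or 9.59% without sorted 4. Pooled over libraries the sorted level was 0.0440 of the crude level, with an exact 95% counting interval of 0.00533 to 0.159. The fitted log2 fold change was -4.41 ± 0.75 (SE, edgeR adjusted p = 6.37e-05), -5.32 ± 0.84 without sorted 4 and -4.74 ± 0.82 without sorted 1 and sorted 4, and it passed in all 3. In 3 of the 8 sorted libraries with no count, 3 counts would have been under the crude median. Hnrnpf shares 49.0% of its 50-base words with other annotated genes, 35.97% with the pseudogene Gm6430, and 26.5% of its exonic bases lie opposite a gene on the other strand, so its level depends on how the authors counted.

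**Figure D4:**
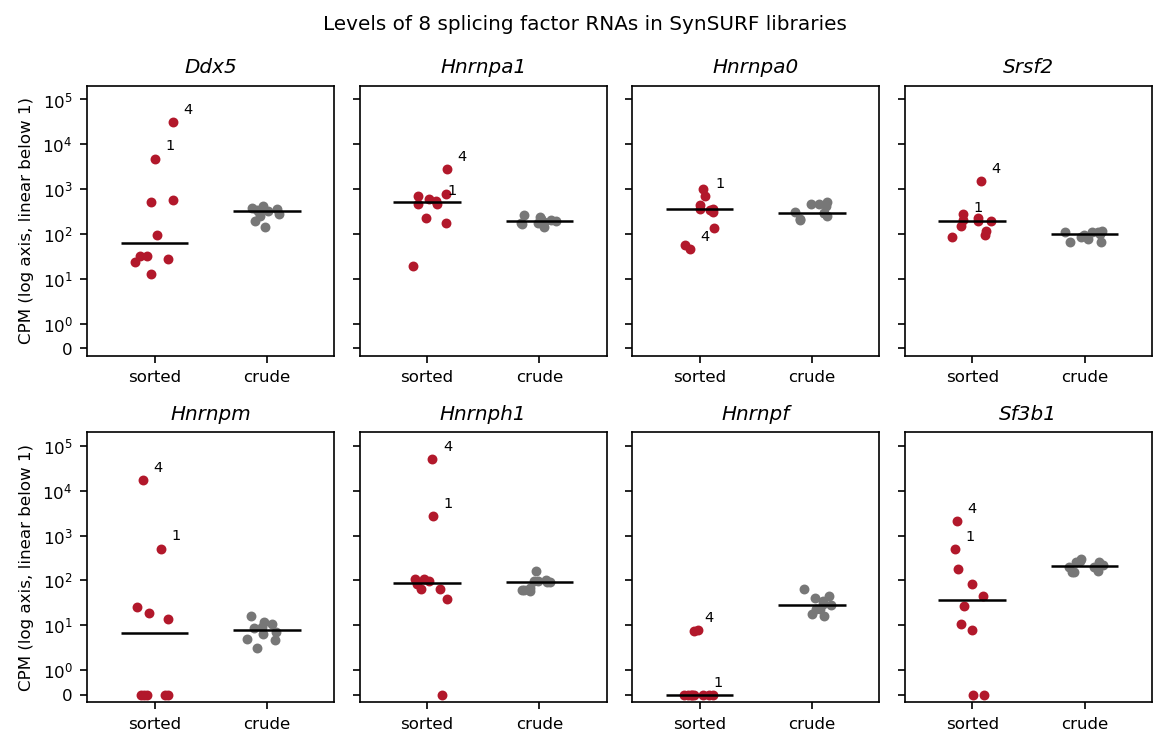
Points are CPM of single SynSURF libraries, sorted on the left and crude on the right of each panel, on a log axis that is linear below 1, with medians as black bars and sorted 1 and sorted 4 numbered. Ddx5, Hnrnpm and Hnrnph1 are high in sorted 4 and sorted 1, Hnrnpa1 and Srsf2 are above the crude range in 7 and 8 sorted libraries, Hnrnpa0 overlaps the crude range, and Hnrnpf lies below it throughout.

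Among the SR proteins, Srsf2 (SC35), an exon-binding activator that marks nuclear speckles, was above the highest crude library in 8 of 10 sorted libraries and below the lowest in 0. It measured 83.5, 196 and 1508 CPM in sorted against 66.7, 98.4 and 118 CPM in crude libraries. These positions rest on the TMM factors. As a plain share of counts sorted 1, with 110 of 1812759, was below crude 1, with 343 of 4384015. Srsf2 rose by 1.70 ± 0.59 on the log2 scale (SE, edgeR adjusted p = 0.0304), and the value was 0.83 ± 0.47 without sorted 4, which did not pass. No 50-base word of its transcript occurs in another annotated gene, but 25.3% of its exonic bases lie opposite a gene on the other strand, and the strand setting of the counts is unknown. Srsf1 (ASF/SF2), the founding SR protein, showed another distribution, with 0, 9.23 and 13480 CPM in sorted against 19.5, 29.1 and 73.5 CPM in crude libraries. Here 3 sorted libraries were above and 7 below the crude range. Srsf1 rose by 5.32 ± 1.39 on the log2 scale (SE, edgeR adjusted p = 0.00471), and the value was 2.10 ± 0.98 without sorted 4, which did not pass.

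Srsf3, the smallest SR protein and a factor in mRNA export, had counts in every library, with 57.4, 236 and 2338 CPM in sorted and 152, 198 and 327 CPM in crude libraries. The groups overlapped and the log2 fold change of 1.16 ± 0.63 did not pass (SE, edgeR adjusted p = 0.165). Srsf6, an exon-binding regulator of tau splicing, was low, with 23 counts in all sorted libraries, or 0, 7.62 and 47.7 CPM, against 18.8, 30.9 and 98.8 CPM in crude libraries. The change of -1.49 ± 0.65 on the log2 scale did not pass (SE, edgeR adjusted p = 0.0822). Srsf10, which acts as a repressor once dephosphorylated, had no count in 7 sorted libraries and 2437 CPM in sorted 4, against 7.72, 12.3 and 30.5 CPM in crude libraries. The log2 fold change of Srsf10 was 4.16 ± 1.27 with all libraries (SE, edgeR adjusted p = 0.0151) and -3.62 ± 0.83 without sorted 1 and sorted 4 (adjusted p = 0.00153, with alternatives up to 0.886), past the threshold in opposite directions. Those 8 remaining libraries held 1 Srsf10 count in all, and in 0 of the 7 without a count was the limit of 3 counts under the crude median, so the negative value lies near the detection limit. Srsf5 and Srsf7 also rose with all libraries, with calls lost without sorted 4 and also without most single crude libraries.

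The SF3 genes encode the branch-site complexes, and none of the 6 tested passed with all libraries. Sf3b1, the largest SF3B subunit and the one that contacts the branch site, had 0, 36.5 and 2110 CPM in sorted against 155, 212 and 293 CPM in crude libraries. In 2 sorted libraries it was above and in 7 below the crude range, and its log2 fold change was 0.46 ± 0.87 (SE, edgeR adjusted p = 0.715) with all libraries and -2.24 ± 0.70 without sorted 1 and sorted 4, which passed. Sf3b6 (p14), which sits at the branch-point adenosine, had the highest crude level of all 42 members per length, a median of 375 TPM, ahead of Hnrnpa0 at 344 TPM and Hnrnpa1 at 341 TPM, and the crude ranges of these 3 overlap. Sf3b6 measured 0, 32.4 and 125 CPM in sorted against 65.3, 110 and 179 CPM in crude libraries, with 7 sorted libraries below the crude range and none above. Its log2 fold change of -1.45 ± 0.64 did not pass (SE, edgeR adjusted p = 0.0877). Sf3a1, the subunit with the SURP domains, had 0, 28.9 and 847 CPM in sorted against 36.2, 53.0 and 81.7 CPM in crude libraries, with its highest value in sorted 10 and no count in sorted 4. The change of 1.40 ± 0.84 did not pass (SE, edgeR adjusted p = 0.214). Sf3a3, which links SF3A to the U2 RNA, had 12 counts over all sorted libraries. Its log2 fold change was -1.40 ± 0.70 with all libraries, which did not pass, and -3.13 ± 0.70 without sorted 4, which did, although in 0 of its 7 sorted libraries without a count was the limit of 3 counts under the crude median.

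Ddx5 and Matr3 had the same 2 high libraries. Ddx5 (p68) is an RNA helicase that opens splice-site duplexes. It measured 12.6, 63.7 and 31148 CPM in sorted against 145, 317 and 418 CPM in crude libraries, with 4805 CPM in sorted 1. In 4 sorted libraries it was above the highest crude library and in the other 6 below the lowest. The log2 fold change was 3.64 ± 1.13 (SE, edgeR adjusted p = 0.0161), 1.17 ± 0.85 without sorted 4 and -0.92 ± 0.69 without sorted 1 and sorted 4, and the last 2 did not pass. Matr3 (matrin 3), a nuclear matrix protein that represses exons, had 63.4, 187 and 26281 CPM in sorted against 414, 460 and 783 CPM in crude libraries. Sorted 4 and sorted 1, at 4270 CPM, were above the crude range and the other 8 below it. With all libraries Matr3 rose by 2.66 ± 0.96 on the log2 scale (SE, edgeR adjusted p = 0.0372), while without sorted 1 and sorted 4 it fell by 1.72 ± 0.47 (adjusted p = 0.00552, with alternatives up to 0.781). The call of a rise was lost in 10 of 20 fits that left out 1 library.

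The members that were high in sorted 4 tended to be high in sorted 1 and to have a lower GC content. Over the 42 members, Spearman's rho between the ratio of sorted 4 to the crude median and that of sorted 1 was 0.77, as a description of values that share the same crude libraries. With the GC content of the longest transcript rho was -0.55, and with transcript length 0.19. The 29 members above every crude library in sorted 4 had a median GC content of 43.9%, and the other 13 had 49.5%. As 2 of the 9 SF3 genes were among the 29, GC content cannot be told apart from family here. It was not taken for genes outside the 42. The shared-word screen found 13 of the 42 members with over 10% of their 50-base words in other annotated genes. Beside those already given, these words made up 34.5% in Hnrnpk, 31.5% in Srsf3, 28.4% in Matr3, 28.2% in Hnrnpa3, 22.7% in Ddx5 and 49.3% in Sf3b4. They made up 27.8% in Srsf5, 12.3% in Hnrnpc and 10.04% in Srsf10.

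Other parts of the splicing machinery were counted over fixed lists, none of which can be called particular from these counts. They stand beside 7.62% of all genes tested that rose and 22.1% that fell, or 6.84% and 25.7% without sorted 4. Of the core Sm and snRNP genes 17 of 33 were tested, 1 rose and 4 fell, with a median log2 fold change of 0.34, and without sorted 4 these were 0, 5 and -0.035. Snrpd2, a core Sm protein, gave 1.68 ± 0.93 and did not pass, while Snrnp200, the helicase that unwinds U4 from U6, fell with -5.53 ± 0.84 (SE, edgeR adjusted p = 2.12e-05). The core list took 0.0692% of counts in sorted 4, against 0.0892% to 0.212% in crude libraries. Of U2AF, Prp19 and late spliceosome genes 15 of 30 were tested, 5 rose and 3 fell, with a median of -0.67. Without sorted 4 that balance turned, with 3 higher and 5 lower of 18 tested and a median of -0.75. Bud31 gave 1.94 ± 0.86 and Snw1, both of the activated spliceosome, -1.32 ± 0.65, and neither passed.

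SR-related proteins and SR kinases had 25 of 27 genes tested, of which 5 rose and 1 fell, with a median of 1.70 with all libraries and 0.43 without sorted 4, where 2 rose and 1 fell. This list took 1.02% of the counts of sorted 4 and 0.141% to 0.216% in crude libraries. Its 2 most abundant members in crude libraries did not pass, the SR kinase Srpk2 at 1.32 ± 0.72 and the U1-associated Luc7l at 1.30 ± 0.93. Neuronal and alternative splicing regulators took 4.06% of the counts of sorted 4, against 0.457% to 0.593% in crude libraries, with 6 higher and 2 lower of 30 tested of 37, or 3 and 1 of 31 without sorted 4. Celf2, a CUG-binding regulator, gave -0.48 ± 0.52 and Qk, the glial quaking protein, 0.37 ± 0.49, and neither passed. FET proteins, TDP-43 and paraspeckle proteins took 0.739% in sorted 4, against 0.112% to 0.185% in crude libraries, and 3 rose and 1 fell of 12 tested of 16. Without sorted 4 the same list had 0 higher and 2 lower of 13, and its median was 0.07 in place of 0.88. Thrap3 gave -0.41 ± 0.64 and the helicase Ddx17, a close relative of Ddx5, 0.96 ± 0.74, and neither passed. Ddx17 had 2 counts in sorted 4, which gave 0.512% of its summed sorted CPM.

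Exon junction and export genes had 10 of 22 tested, 3 higher and 1 lower, or 1 higher and 3 lower of 13 without sorted 4. With library totals, beside 1.52% and 39.3% of all genes, the higher and lower counts were 0 and 5 for core Sm and snRNP genes, 1 and 7 for U2AF, Prp19 and late spliceosome genes, 2 and 2 for SR-related proteins and kinases, 4 and 8 for the regulators, 1 and 2 for the FET list and 1 and 1 for export genes. Of the export genes Ddx39b (UAP56), the helicase that couples splicing to export, rose with a log2 fold change of 2.99 ± 0.69 (SE, edgeR adjusted p = 0.00170), and sorted 4 gave 10.7% of its summed sorted CPM. It averaged 2127 ± 2051 CPM in sorted and 267 ± 98.4 CPM in crude libraries (SD, n = 10 each). Without sorted 4 its change was 2.95 and passed again. Ncbp1, the larger cap-binding subunit, gave -0.52 ± 0.76 and did not pass.

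In the sucrose preparation no member passed the test, and most had a somewhat lower value in sorted than in crude libraries. Of 10589 genes tested none was called, 0% in each direction, with 324 at an unadjusted p under 0.05, and the DESeq2 Wald test called 1. The log2 fold change of sorted over crude was negative for 35 of the 40 members tested, with a median of -0.46 over the members and -0.04 over all genes. Hnrnpul1 and Sf3a2 did not pass the filter. The share of counts from the 42 genes was 0.383 ± 0.0636% in sorted and 0.493 ± 0.0682% in crude libraries (SD, n = 3 each), and these ranges, 0.327% to 0.452% and 0.424% to 0.560%, overlapped. Within each of the 3 pairs of one number the share was lower in the sorted library, at 0.369% against 0.424% in pair 1, 0.327% against 0.494% in pair 2 and 0.452% against 0.560% in pair 3. The values for single members ran between -1.85 and 0.13.

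**Figure D5:**
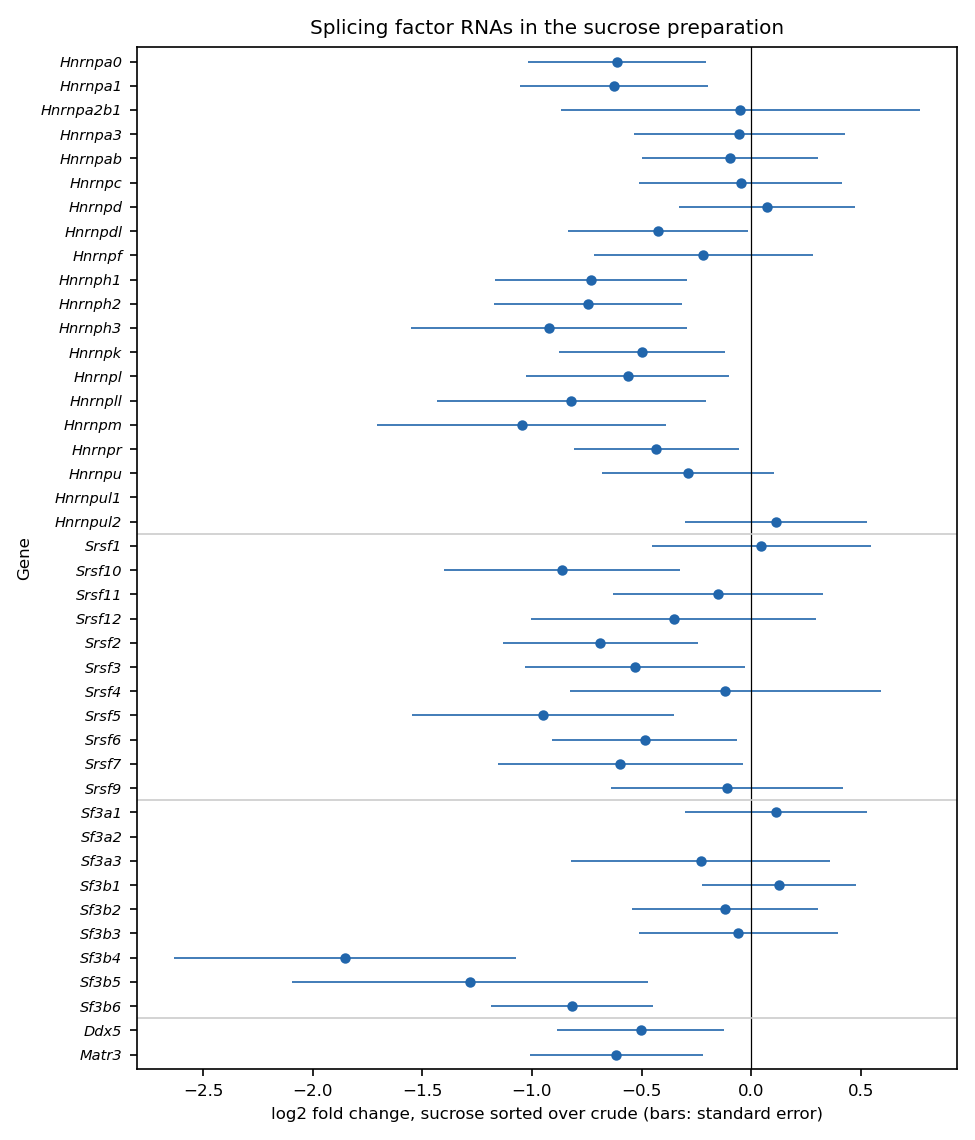
Points are log2 fold changes of sucrose sorted over crude for each gene with standard error bars, in the same gene order as for SynSURF. Of 40 genes, 35 lie left of 0, none passed the test, and Hnrnpul1 and Sf3a2 were not tested.

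Hnrnpa1 had 80.1, 129 and 182 CPM in sucrose sorted 1 to 3, against 141, 222 and 241 CPM in crude 1 to 3. Ddx5 had 229, 252 and 344 CPM in sorted and 276, 401 and 491 CPM in crude libraries, and Matr3 311, 327 and 496 CPM against 375, 762 and 598 CPM. For these 3 genes each sorted library was below the crude library of the same number, and the groups overlapped. Hnrnpf, so low in SynSURF sorted libraries, was present at 39.4, 28.4 and 63.8 CPM in sorted and 31.8, 44.9 and 76.4 CPM in crude sucrose libraries, a log2 fold change of -0.22 ± 0.50. Hnrnpm stayed low in both groups, at 5.68, 6.27 and 3.58 CPM in sorted and 10.1, 15.7 and 6.04 CPM in crude libraries. Only Sf3b6 and Sf3b4, a further SF3B subunit, had an unadjusted p under 0.05 in edgeR with no block. With the replicate number as a block there were 7 such members, Sf3b6, Srsf5, Hnrnpa0, Hnrnpa1, Hnrnph2, Matr3 and Sf3b4, all with negative values, and none passed, the lowest adjusted p being 0.462 for Sf3b6. Sf3b6 had 117, 140 and 156 CPM in sorted, all below the 203, 231 and 293 CPM of crude libraries, with -0.82 ± 0.37 on the log2 scale, and Sf3b4 gave -1.85 ± 0.78, both with an edgeR adjusted p of 0.999 with no block.

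The difference between the preparations was tested as the SynSURF effect minus the sucrose effect over genes in both tables. Of 41 members tested, 2 were higher and 1 lower, beside 0.299% and 17.3% of 10713 genes. Hnrnph3 differed by 8.38 ± 2.56 on the log2 scale (SE, edgeR adjusted p = 0.0222), with its sucrose values at 5.68, 4.90 and 4.23 CPM in sorted against 8.49, 11.7 and 7.69 CPM in crude libraries. Without sorted 4 the difference of Hnrnph3 was 4.90 ± 1.42, and without sorted 1 and sorted 4 it was 3.62 ± 1.06, and both passed. Hnrnpa2b1 differed by 8.53 ± 2.92 (SE, edgeR adjusted p = 0.0409), by 4.85 ± 1.69 without sorted 4, which passed, and by 1.15 ± 1.23 without sorted 1 and sorted 4, which did not. Hnrnpf differed by -4.65 ± 1.11 (SE, edgeR adjusted p = 0.00438), by -5.45 ± 1.16 without sorted 4 and by -4.88 ± 1.08 without both, and passed each time. In all, 2 members were higher and 2 lower without sorted 4, beside 0.326% and 16.8% of genes, and 1 higher and 3 lower without sorted 1 and sorted 4, beside 0.398% and 18.9%. Hnrnpm, with the largest SynSURF change of the tested members, differed by 7.91 ± 2.90 and did not pass (SE, edgeR adjusted p = 0.0562).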

How the data were processed

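Estimated counts and TPM per gene symbol were deposited by the authors in 1 table per preparation. TPM values are the authors' deposited length-scaled values. Per the submitters' processing notes, fastp, HISAT2 and the builds GRCm38 and GRCm39 belong to the processing, with no roles given. For either table the counter, strand setting and build are not given in these sources. Estimated counts (7278 SynSURF and 4660 sucrose values were not whole) were rounded. The sheet with 18 other per-sample columns was not used, and 2 total RNA libraries are not analysed here.

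Sorted and crude libraries were compared with edgeR 4.0.16 in R 4.3.3 (quasi-likelihood test, TMM, filterByExpr, no block, Benjamini-Hochberg over all genes tested, threshold 0.05). The standard error is the absolute log2 fold change over the square root of F. The difference between preparations used 4 groups over 23466 shared symbols. Alternatives used DESeq2 1.42.0, limma 3.58.1 voom with sample weights, other scalings, no filter, thinned crude libraries (fixed seed), a replicate block and left-out libraries. The code was tested on simulated data. No 2 libraries were identical.

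Members and lists were chosen with earlier results of these data known. Values were given for the 5 hnRNP, 4 SR and 3 SF3 genes of highest crude CPM, Ddx5, Matr3, members past the threshold with and without sorted 4, members with separate groups, the 3 with the largest share from sorted 4, and the 2 most abundant tested genes of each other splicing list. Hnrnph1, Hnrnph2, Hnrnpd, Hnrnpdl, Hnrnpr, Srsf10 and Sf3a3, and any other gene named, were chosen after their values were seen. The 3 sucrose pairs of the same number deviated together over genes (r = 0.348, 0.487 and 0.338), so they count as paired, from the data alone. Transcripts, positions and 50-base words come from GENCODE M21 (GRCm38).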

Additional observations from a re-analysis of the deposited data

Results flagged for a closer look

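In 20 of 26 sorted SynSURF measures looked at, 25 named members and their summed share, the library sorted 4 lay so far above the other 9 that its gap to the next library took more of the group's range than Dixon's limit for 10 values allows. The limit flags about 1 in 20 groups of normally spread values, and these CPM are skewed with many zeros, so that rate does not hold here. The genes were partly chosen for this pattern and share sorted 4 and its scaling. The flags are therefore not independent and only describe these values. The gap was 0.940 of the range for the summed share. Among hnRNP genes it was 0.717 for Hnrnpa1, 0.960 for Hnrnpa2b1, 0.714 for Hnrnpa3, 0.969 for Hnrnpd, 0.909 for Hnrnpdl, 0.947 for Hnrnph1, 0.956 for Hnrnph2, 0.966 for Hnrnph3, 0.898 for Hnrnpk, 0.970 for Hnrnpm and 0.933 for Hnrnpr. Among SR genes it was 0.916 for Srsf1, 0.937 for Srsf10, 0.863 for Srsf2 and 0.692 for Srsf3, and among SF3 genes 0.792 for Sf3a3 and 0.763 for Sf3b1. It was 0.846 for Ddx5 and 0.840 for Matr3.

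In 2 further sorted measures another library was the high one, sorted 3 for Hnrnpab (0.645 of the range) and sorted 10 for Sf3a1 (0.672). In the crude group, library 8 was high for Hnrnph1 (0.563), Hnrnpr (0.518) and Srsf6 (0.633), and library 4 for Matr3 (0.530).

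The SynSURF and sucrose effects differed, by the test of the difference in edgeR, for Hnrnpa2b1 (8.53 on the log2 scale, adjusted p = 0.0409), Hnrnph3 (8.38, adjusted p = 0.0222) and Hnrnpf (-4.65, adjusted p = 0.00438). Hnrnpa2b1 had counts in 3 of 10 sorted SynSURF libraries, Hnrnph3 in 8 and Hnrnpf in 2.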

How the results depend on the processing

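Counts of splicing factors called in SynSURF moved with most choices. Against 16 higher and 1 lower, library totals gave 5 and 6, the DESeq2 Wald test 6 and 6, voom with sample weights 0 and 5, and leaving out sorted 1 and sorted 4 gave 2 and 9. No filter gave 11 and 3, and crude libraries thinned to sorted totals, with 16 members tested, 11 and 0. Leaving out 1 library gave 1 to 18 higher and 1 to 4 lower. Over all genes, 1961 were called, against 3070 by DESeq2, 4417 with no filter, 430 with thinned crude libraries and 1555 to 2646 without 1 library. In sucrose 1 gene in place of 0 was called by DESeq2, with no filter and with the replicate block, and 0 to 1 without 1 library. For the difference, library totals called 3033 genes in place of 1885. Against 2 members higher and 1 lower in the main fit, library totals gave 2 and 2, as did leaving out sorted 4. DESeq2 size factors in edgeR gave 3 and 1, and leaving out sorted 1 and sorted 4 gave 1 and 3. The mean sorted share was 1.44%, or 0.380% without sorted 4 and 1.66% without Rn45s. The cause of these moves was not tested.

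A replicate block left 0 higher and 3 lower in SynSURF and 1 member called in the difference, Hnrnpf. In SynSURF same-numbered libraries correlated at 0.0566 to 0.190, not over 0.1 in every pair, so the block was kept as an alternative. Still, 8 of 10 sorted libraries correlated best with their own number, so pairing is likely from the data, though the labels do not give it. The SynSURF tests with no block ignore such pairing. In sucrose the block changed no member's call.

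Fold changes of named members turned negative from positive in these settings. Leaving out 1 library moved Hnrnph2 between -0.90 and 2.32, Sf3b1 between -1.15 and 0.58 and Hnrnpdl between -1.77 and 0.24, each lowest without sorted 4, and Hnrnpa0 between -0.20 (without sorted 3) and 0.24. Without sorted 1 and sorted 4, Sf3b1 was -2.24, Ddx5 -0.92, Hnrnpdl -2.20, Srsf10 -3.62, Matr3 -1.72, Srsf3 -0.045, Hnrnph1 -0.40, Hnrnpm -0.73, Hnrnph2 -1.46 and Srsf1 -0.22. With the block, Hnrnph2 was -1.21, Srsf10 -1.55, Hnrnpdl -1.81, Sf3b1 -2.20, Ddx5 -1.12, Srsf1 -0.69, Sf3a1 -0.64, Matr3 -0.98, Hnrnpa0 -0.27 and Hnrnpab -0.41. With voom, Ddx5 was -1.16, Hnrnpa0 -0.25, Hnrnph2 -1.29, Hnrnpdl -1.66, Srsf10 -0.47, Sf3a1 -0.032, Hnrnpab -0.61, Srsf3 -0.086, Srsf1 -0.22, Sf3b1 -2.56, Matr3 -1.11 and Hnrnpr -0.28. By DESeq2, Hnrnph2 was -1.01, Matr3 -0.34, Srsf10 -0.16, Sf3b1 -1.48 and Hnrnpdl -1.82. With library totals, Srsf3 was -0.17, Sf3b1 -1.18, Hnrnpa0 -0.80 and Hnrnpdl -1.39, and with no filter Hnrnpa0 was -0.19, Hnrnpdl -0.48 and Sf3b1 -0.12. Sucrose Hnrnpf, -0.22, ran between -0.56 and 0.18 and was positive without crude 3 or sorted 2. Hnrnpf in SynSURF stayed negative and past the threshold in each alternative that tested it, with adjusted p up to 0.00167. Depth limits the sorted SynSURF libraries, where 3 counts equal up to 57.4 CPM.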

Other observations

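A few members, named after their values were seen, were high in sorted libraries other than sorted 1 and sorted 4. Sf3b2, an SF3B subunit, had no count in sorted 4 and up to 973 CPM in the 8 other sorted libraries than 1 and 4, whose median was 26.6 CPM, against 19.6 to 65.7 CPM in crude libraries. It lay above every crude library in 3 sorted libraries and below every one in 5. Its log2 fold change was 2.08 with all libraries, which did not pass, and 2.33 without sorted 1 and sorted 4, which did. Srsf4, an SR protein, held up to 632 CPM in those 8 libraries, with a median of 19.6 CPM, against 4.97 to 42.8 CPM in crude libraries. It gave 1.99 and 2.17 with the same calls. Single libraries weighed on both genes, as sorted 6 gave 55.2% of the summed sorted CPM of Sf3b2 and sorted 3 gave 74.6% for Srsf4. Their medians over those 8 libraries lay below the crude medians of 35.6 CPM for Sf3b2 and 21.8 CPM for Srsf4. Sf3b3, another SF3B subunit, had no count in 7 sorted libraries and a log2 fold change of -1.55, which did not pass.

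Srsf12, a neuron-rich SR protein, had 3 counts in all sorted libraries together, and in 0 of the 7 with none was the limit of 3 counts under the crude median. Pooled, its sorted level was 0.145 of the crude level, with an exact 95% counting interval of 0.0299 to 0.423. The added genes Ddx5 and Matr3 together took 0.00869% to 0.271% of counts in the 9 sorted libraries other than sorted 4, against 0.0854% to 0.162% in crude libraries.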
